A study of Mus musculus with 12 samples.

Results

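The comparison described here sets the descending aorta, the part of the main artery that runs down through the chest and abdomen, against the superior mesenteric artery, which leaves the aorta in the abdomen and feeds the small intestine. Its members are the 3 arrays titled as descending aorta and the 3 titled as superior mesenteric artery, 6 of the 12 arrays in the study. The other 6 arrays carry RNA of the ascending aorta and of the coronary artery, 3 each. The study collected vessels from several vascular compartments of the mouse and looked for expression profiles that go with embryonic origin. RNA abundance was measured on Affymetrix arrays.

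All mice were untreated, wild-type, of the C57BL/6 strain and 8 weeks old, so the 2 groups of arrays share strain, genotype and age and differ in the vessel. Total RNA was taken with Trizol from whole primary tissue, and biotin-labelled cRNA was made from 6 ug of it. The 3 arrays of a vessel are labelled biological replicates. The labels do not say whether a replicate is 1 animal or a pool, nor whether the fat and connective tissue around the vessels was stripped before extraction. The labels name no purification of cells, so each value is an average over all cells in the piece of tissue.

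An artery has an inner layer of endothelial cells, a middle layer of contractile smooth muscle with elastic sheets, and an outer layer of fibroblasts. Outside it lies perivascular fat. In mice the fat around the thoracic aorta is of the brown type, whose cells burn fatty acids in dense mitochondria to make heat, while the fat around mesenteric arteries is mostly of the white, lipid-storing type and lies near lymph nodes and pancreas. Descending aorta and superior mesenteric artery also lie at different levels of the body axis, which Hox genes mark, and the smooth muscle of different arteries is known to arise from different embryonic sources.

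A level below is the deposited log2 value of a probe set, and a difference is the mean of the 3 descending aorta arrays minus the mean of the 3 superior mesenteric artery arrays, so that 1 unit is a 2-fold difference of array signal. Each gene is represented by its probe set with the highest mean, and the median level of the 19938 genes over the 6 arrays was 4.12. Probe sets bind their targets unequally, so levels were compared between arrays and never between genes. Detection calls were not used, so a probe set with a low level in one vessel is not shown to be above background there, and its difference is given on the log2 scale and not as a fold. Differences were tested with limma in a linear model over all 12 arrays with Benjamini-Hochberg adjustment over the 19938 genes, and a gene passed where its adjusted p was under 0.05.

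The descending aorta arrays resembled each other closely, and the superior mesenteric artery arrays less so. Across genes, the correlation of levels was 0.973 to 0.976 within descending aorta, 0.937 to 0.960 within superior mesenteric artery and 0.919 to 0.940 between them; these are correlations over genes, which are not independent replicates. The lowest correlation within superior mesenteric artery was below the highest one between the vessels. Smooth muscle and endothelial markers, which mark arterial tissue but cannot tell one artery from another, had the following levels. Acta2, the smooth muscle actin, had levels of 10.09, 10.41 and 10.24 in descending aorta and 11.6, 8.72 and 9.23 in superior mesenteric artery. Pecam1, an endothelial adhesion molecule, had levels of 8.41, 7.82 and 8.37 in descending aorta and 9.41, 7.3 and 8.48 in superior mesenteric artery.

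Several arrays stood apart in what other cells they carried, as the mean levels of marker lists show. Superior mesenteric artery replicate 1 had the highest mean of the 32 measured smooth muscle genes, 8.95, against 6.31 and 6.78 in replicates 2 and 3; the descending aorta arrays, at 6.85, 6.95 and 6.9, lay between replicates 3 and 1. Superior mesenteric artery replicate 3 carried pancreatic acinar transcripts at a mean of 8.92, where the descending aorta arrays had 3.14, 3.37 and 3.13 and the other superior mesenteric artery arrays 4.58 and 3.52. B cell and plasma cell genes averaged 4.6, 3.85 and 4.9 in descending aorta, against 5.08, 7.01 and 6.58 in superior mesenteric artery, so superior mesenteric artery replicates 2 and 3 stood out. Descending aorta replicate 1 had a shared cardiomyocyte mean of 5.53, against 4.21 and 4.14 in replicates 2 and 3. Outside the pair, ascending aorta replicate 1 had a B cell and plasma cell mean of 8.05, against 4.10 and 4.11 in replicates 2 and 3. Its T cell and lymph node mean was 7.39, against 3.76 and 4.59, and its fibroblast mean 5.52, against 8.20 and 8.01. That array enters the estimate of spread but not the differences, so a wide SE need not come from the 6 arrays of the pair. Counts of genes are therefore given with and without these arrays where that moved them by more than 1.5 times.

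**Figure D1:**
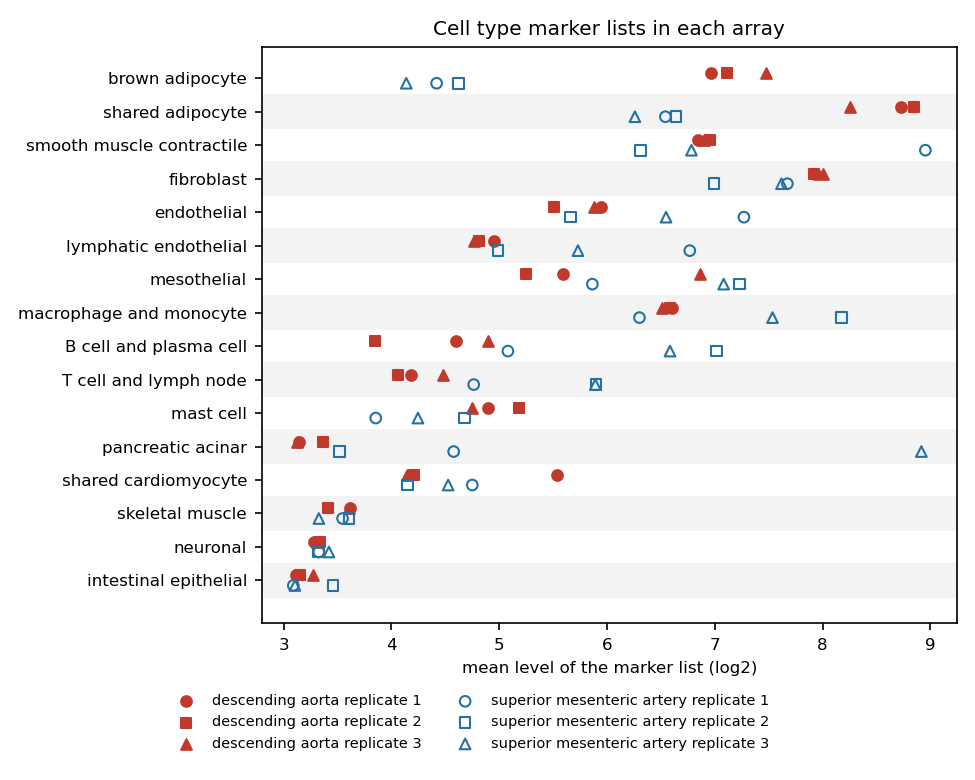
Mean level (log2) of 16 marker lists in each of the 6 arrays, with descending aorta in filled red and superior mesenteric artery in open blue symbols and 1 symbol shape per replicate. The brown adipocyte, shared adipocyte, fibroblast and mast cell means are higher in every descending aorta array than in any superior mesenteric artery array. The lymphatic endothelial, B cell and plasma cell, T cell and lymph node and pancreatic acinar means are lower in every descending aorta array. The smooth muscle list is highest in superior mesenteric artery replicate 1 at 8.95, and the acinar list is highest in superior mesenteric artery replicate 3 at 8.92.

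The difference between the vessels was dominated by genes higher in the descending aorta. Of 19938 genes, 567 (2.84%) were higher and 72 (0.361%) were lower in descending aorta (limma, adjusted p under 0.05), and 487 and 54 of these differed at least 2-fold. The median difference was 1.47 among the higher genes and -1.28 among the lower ones, against a median of -0.01 over all genes. In all 567 and all 72 genes the 3 arrays of one vessel lay beyond the 3 of the other; this held for 12.5% of all genes with descending aorta above and for 10.4% with superior mesenteric artery above. Genes of fat cells, of oxidative phosphorylation and of other mitochondrial pathways made up 147 of the 567 higher genes (25.9%) and 0 of the 72 lower ones. Of the 567 higher genes 420 stood outside those lists, and 401 stood in none of the 52 lists used here.

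The counts moved with single arrays. The 567 higher genes became 338, 202 and 324 without descending aorta replicate 1, 2 and 3, and 250 without superior mesenteric artery replicate 3. The 72 lower genes became 27, 16 and 37 without the same descending aorta arrays and 22 without that superior mesenteric artery array. Without ascending aorta replicate 1, which enters only through the shared estimate of spread, 970 genes were higher and 391 lower. In each of these fits fewer or more genes passed, but no named gene that had passed changed direction.

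**Figure D2:**
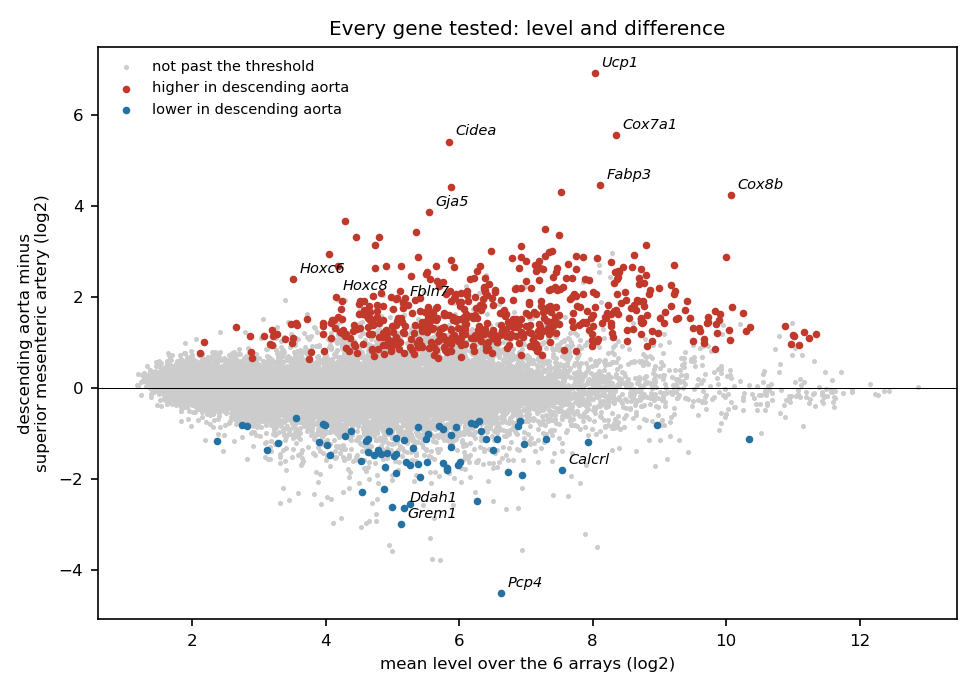
Difference between descending aorta and superior mesenteric artery (log2, vertical axis) against the mean level over the 6 arrays (log2, horizontal axis) for every gene tested, with the 567 genes higher in descending aorta in red and the 72 lower in blue. Ucp1, at a difference of 6.91, and Pcp4, at -4.5, lie at the 2 extremes of the genes that passed.

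The 4 largest positive differences of single genes were those of Ucp1, Cox7a1, Cidea and Fabp3, all markers of brown adipocytes. Of 15 measured members, 10 (66.7%) were higher in descending aorta and 0 were lower, against 2.84% and 0.361% of all genes. The median difference was 1.97, against -0.01 over all genes. The medians of the shared adipocyte, fatty acid oxidation and TCA cycle lists, given below, were larger. The list mean was 6.96, 7.11 and 7.48 in the descending aorta arrays, against 4.42, 4.62 and 4.14 in the superior mesenteric artery arrays. In the ascending aorta and coronary artery it averaged 6.55 ± 0.43 and 5.78 ± 0.04 (SD, n = 3 each). In whole tissue, more brown fat cells and more of these transcripts per fat cell cannot be told apart.

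Ucp1, the uncoupling protein that lets brown fat mitochondria release energy as heat, had levels of 11.29, 11.59 and 11.59 in descending aorta, against 3.47, 6.82 and 3.43 in superior mesenteric artery. All 3 descending aorta arrays were high, and superior mesenteric artery replicate 2 stood above the other replicates of its vessel without reaching them. The difference was 6.91 ± 0.83 (SE, limma adjusted p = 0.00107), and the ascending aorta and coronary artery means were 10.93 ± 0.31 and 4.77 ± 1.51 (SD, n = 3 each). Cidea, a lipid droplet protein of brown adipocytes, had levels of 8.27, 8.72 and 8.65 in descending aorta, against 3.09, 3.74 and 2.6 in superior mesenteric artery. Its arrays were tight within both vessels and the difference was 5.41 ± 0.38 (SE, limma adjusted p = 4.33e-05). The muscle and brown fat isoforms of cytochrome c oxidase subunits, Cox7a1 and Cox8b, were both higher. Cox7a1 had levels of 10.99, 11.11 and 11.25 in descending aorta and 4.93, 6.85 and 4.94 in superior mesenteric artery, a difference of 5.55 ± 0.55 (SE, limma adjusted p = 0.000582). Cox8b had levels of 12.09, 12.16 and 12.33 in descending aorta and 7.22, 8.83 and 7.83 in superior mesenteric artery, a difference of 4.23 ± 0.41 (SE, limma adjusted p = 0.000582). Superior mesenteric artery replicate 2 was again the highest of its vessel for both, as for Ucp1.

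Fatty acid handling genes of brown fat followed. Fabp3, a fatty acid-binding protein of heart, muscle and brown fat, had levels of 10.09, 10.36 and 10.56 in descending aorta and 5.46, 6.36 and 5.84 in superior mesenteric artery, a difference of 4.45 ± 0.35 (SE, limma adjusted p = 0.000115). Pdk4, the kinase that shuts off pyruvate dehydrogenase, had levels of 8.79, 9.39 and 9.37 in descending aorta and 7.67, 4.47 and 5.31 in superior mesenteric artery, with superior mesenteric artery replicate 1 well above the other replicates of its vessel. Its difference of 3.37 ± 0.67 (SE, limma adjusted p = 0.0169) did not pass when any 1 of these was left out: descending aorta replicate 2 or 3 or superior mesenteric artery replicate 2 or 3. Slc27a2, a fatty acid transport protein, differed by 2.68 ± 0.41 (SE, limma adjusted p = 0.00367), and Otop1, a proton channel found in brown fat, by 1.97 ± 0.25 (SE, limma adjusted p = 0.00163). Dio2, which activates thyroid hormone inside brown fat, and Ebf2, a transcription factor of the brown lineage, also passed with differences of 1.8 and 1.53 (limma adjusted p = 0.0281 and 0.0270). Dio2 did not pass when any 1 of these was left out: descending aorta replicate 1, 2 or 3 or superior mesenteric artery replicate 1, 2 or 3. Ebf2 did not pass when any 1 of these was left out: descending aorta replicate 1, 2 or 3 or superior mesenteric artery replicate 1 or 2.

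Not every brown fat gene passed. Ppargc1a, a coactivator of mitochondrial gene expression, differed by 1.23 ± 0.48 (SE, limma adjusted p = 0.253), and Prdm16, a regulator of brown fat identity, by 0.89 ± 0.37 (SE, limma adjusted p = 0.302). Without superior mesenteric artery replicate 1 Ppargc1a passed (difference 1.89, limma adjusted p = 0.0159). Elovl3, a fatty acid elongase, had levels of 3.35, 3.14 and 6.59 in descending aorta and 2.18, 2.31 and 2.81 in superior mesenteric artery, so the descending aorta arrays spread widely (difference 1.93 ± 0.72 SE, limma adjusted p = 0.224). Zic1 and Lhx8, transcription factors that mark the brown fat between the shoulder blades, stood at differences of -0.09 and 0.05 with levels of 2.8, 3.11 and 2.68 and 3.49, 3.17 and 3.54 in the descending aorta arrays.

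**Figure D3:**
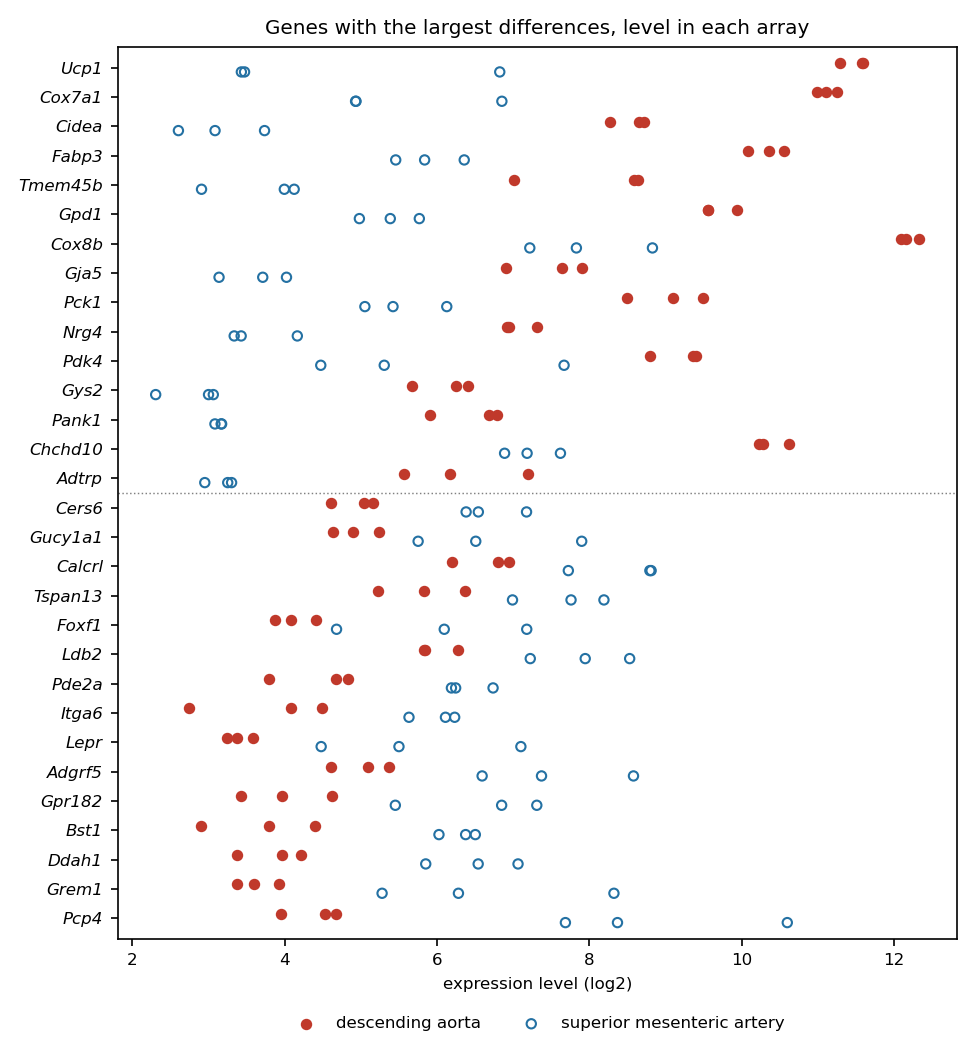
Level (log2) in each array of the 15 genes with the largest positive and the 15 with the largest negative difference among those that passed, with descending aorta in filled red and superior mesenteric artery in open blue circles. In each of the 30 genes the 3 arrays of one vessel lie on one side of the 3 of the other; Ucp1 heads the higher genes and Pcp4 ends the lower ones.

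Genes shared by white and brown fat cells rose as well. Of 30 measured members, 20 (66.7%) were higher and 0 were lower, against 2.84% and 0.361% of all genes. The median difference was 2.17. The list mean was 8.73, 8.84 and 8.26 in descending aorta, against 6.54, 6.64 and 6.26 in superior mesenteric artery. The count was 13 without descending aorta replicate 1, 10 without replicate 2 and 11 without superior mesenteric artery replicate 3. Members passing the test covered lipid synthesis and storage: Gpd1, which makes the glycerol backbone, differed by 4.31 ± 0.47 (SE, limma adjusted p = 0.000702), and Pck1, which feeds glycerol synthesis from pyruvate, by 3.49 ± 0.38 (SE, limma adjusted p = 0.000702). Dgat2 and Agpat2, 2 acyltransferases of triglyceride synthesis, differed by 3.0 and 2.98 (limma adjusted p = 0.00647 and 0.00585). Pparg, the master transcription factor of fat cells, had levels of 8.61, 8.83 and 8.01 in descending aorta, against 5.98, 5.99 and 5.36 in superior mesenteric artery, a difference of 2.71 ± 0.41 (SE, limma adjusted p = 0.00355). Plin1, which coats lipid droplets, differed by 2.57 ± 0.41 (SE, limma adjusted p = 0.00467). For Pparg every descending aorta array stood above every superior mesenteric artery array.

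Of the genes for fat cell hormones, Adipoq, which encodes adiponectin, had levels of 9.52, 9.67 and 9.33 in descending aorta and 8.27, 8.45 and 7.98 in superior mesenteric artery, and its difference was 1.27 ± 0.41 (SE, limma adjusted p = 0.143). Lep, the leptin gene, had levels of 5.83, 5.77 and 3.86 in descending aorta, spread over the replicates, and 2.93, 3.57 and 3.16 in superior mesenteric artery (difference 1.93 ± 0.65 SE, limma adjusted p = 0.165). Neither passed, though both did without ascending aorta replicate 1 (limma adjusted p = 0.0143 and 0.0128). Lepr, the leptin receptor, was lower in descending aorta. Its levels were 3.58, 3.24 and 3.37 in descending aorta and 7.1, 4.48 and 5.5 in superior mesenteric artery. The 3 descending aorta arrays were low and close together while superior mesenteric artery replicate 1 was highest, and the difference was -2.3 ± 0.47 (SE, limma adjusted p = 0.0181); it did not pass when any 1 of these was left out: descending aorta replicate 1, 2 or 3 or superior mesenteric artery replicate 3.

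Most genes of the respiratory chain were higher in the descending aorta. Of 78 measured genes of oxidative phosphorylation, 62 (79.5%) were higher and 0 were lower, against 2.84% and 0.361% of all genes. In 74 the descending aorta arrays all lay above the superior mesenteric artery arrays, against 12.5% of all genes. Their median difference was 1.52. The higher count was 29 and 39 without descending aorta replicate 2 and 3 and 35 without superior mesenteric artery replicate 3, while the median difference stayed between 1.42 and 1.58 when any 1 array was left out. The list mean was 9.9 ± 0.1 in descending aorta and 8.39 ± 0.12 in superior mesenteric artery. It was 9.24 ± 0.6 in ascending aorta and 10.05 ± 0.06 in coronary artery (SD, n = 3 each). Heart muscle is also rich in these transcripts. The cardiomyocyte list mean was 5.53, 4.21 and 4.14 in descending aorta and 4.75, 4.15 and 4.53 in superior mesenteric artery, with 0 of its 25 members past the threshold, and its part in these counts was not tested.

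By complex, the counts and medians were as follows, where 2.84% of all genes were higher. In complex I, which takes electrons from NADH, 31 of 35 genes were higher with a median of 1.56. In complex II, succinate dehydrogenase, 3 of 4 were higher with a median of 1.84. In complex III with cytochrome c, 9 of 10 were higher with a median of 1.85. In complex IV, cytochrome c oxidase, 10 of 13 were higher with a median of 1.15, and in the ATP synthase 9 of 16 with a median of 1.05. The complex IV list shares Cox7a1, its largest difference at 5.55, with the brown adipocyte list. The differences between the 5 groups were not tested. As background, brown fat mitochondria are known for a low amount of the ATP synthase enzyme relative to the rest of the chain. Enzyme amounts were not measured here.

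Single subunits were uniform within each vessel. Ndufb8 of complex I had levels of 9.74, 10.12 and 9.91 in descending aorta and 7.27, 7.93 and 7.65 in superior mesenteric artery, a difference of 2.31 ± 0.36 (SE, limma adjusted p = 0.00433). Sdhb of complex II had levels of 9.76, 10.1 and 9.87 in descending aorta and 7.33, 7.83 and 7.29 in superior mesenteric artery, a difference of 2.42 ± 0.35 (SE, limma adjusted p = 0.00273). Cycs, cytochrome c itself, had levels of 9.85, 10.13 and 9.78 in descending aorta and 7.17, 7.71 and 6.94 in superior mesenteric artery, a difference of 2.65 ± 0.36 (SE, limma adjusted p = 0.00214). In each of the 3 genes the gap between vessels exceeded the range within either. Cox5a, a subunit of complex IV present in all tissues, differed by 2.06 ± 0.23 (SE, limma adjusted p = 0.000867), and Atp5b, the catalytic subunit of the ATP synthase, by 1.42 ± 0.2 (SE, limma adjusted p = 0.00256).

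The pathways that feed the chain went with it. In the mitochondrial fatty acid oxidation list 18 of 19 genes (94.7%) were higher, against 2.84% of all genes. The median was 2.55, the highest of the lists of energy metabolism. The count stayed between 17 and 18 when any 1 array was left out. This list shares Fabp3, its largest difference at 4.45, with the brown adipocyte list. The fat and mitochondrial lists share further members, so their counts overlap. Together they held 231 genes, 147 of them higher. Acadl and Acadm, dehydrogenases for long and medium chains, differed by 2.88 ± 0.31 (SE, limma adjusted p = 0.000702) and 2.85 ± 0.34 (SE, limma adjusted p = 0.00104), and Hadhb, a subunit of the trifunctional protein, by 2.77 ± 0.26 (SE, limma adjusted p = 0.000460). The exception was Cpt1a, the carnitine transferase isoform of liver and many other tissues, with levels of 4.74, 5.11 and 4.89 in descending aorta and 6.08, 5.26 and 5.28 in superior mesenteric artery (difference -0.63 ± 0.25 SE, limma adjusted p = 0.255). In the TCA cycle and pyruvate oxidation 20 of 23 genes (87%) were higher, against 2.84% of all genes, with a median of 2.02. Among them, Sucla2 and Idh3a differed by 2.9 and 2.88 (limma adjusted p = 0.000582 and 0.000702).

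Genes with symbols of mitochondrial ribosomal proteins moved by less. All 74 measured members had a positive difference, where 49% of all genes did, with a median of 0.84. Of the members 23 (31.1%) passed, against 2.84% of all genes higher. This count ranged from 8 without descending aorta replicate 2 to 47 without ascending aorta replicate 1. Members were taken by gene symbol, which does not establish that each belongs to the ribosome. Of them, Mrps36 and Mrpl34 had the largest differences, 2.19 and 2.0 (limma adjusted p = 0.00389 and 0.00612). Of 21 genes of glycolysis and the hypoxia response, 9 (42.9%) were higher and 1 (4.76%) was lower, against 2.84% and 0.361% of all genes. The median was 1.09. Without any 1 of the 6 arrays the higher count was 3 to 5. Pfkfb3, which makes the activator of glycolysis, differed by 1.71 ± 0.17 (SE, limma adjusted p = 0.000604), and Vegfa, the growth factor for endothelium, by 1.19 ± 0.25 (SE, limma adjusted p = 0.0199), which did not pass when any 1 of these was left out: descending aorta replicate 1, 2 or 3 or superior mesenteric artery replicate 2 or 3. The lower gene was Egln3, an oxygen-sensing prolyl hydroxylase (-1.14 ± 0.24 SE, limma adjusted p = 0.0238), and it did not pass when any 1 of these was left out: descending aorta replicate 1 or 3 or superior mesenteric artery replicate 1 or 3. Pank1, which starts coenzyme A synthesis, Gys2, a glycogen synthase best known from liver, and Chchd10, a protein of the mitochondrial intermembrane space, were among the 15 largest differences at 3.32 ± 0.23 (SE, limma adjusted p = 4.33e-05), 3.32 ± 0.38 (SE, limma adjusted p = 0.000991) and 3.15 ± 0.34 (SE, limma adjusted p = 0.000702).

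**Figure D4:**
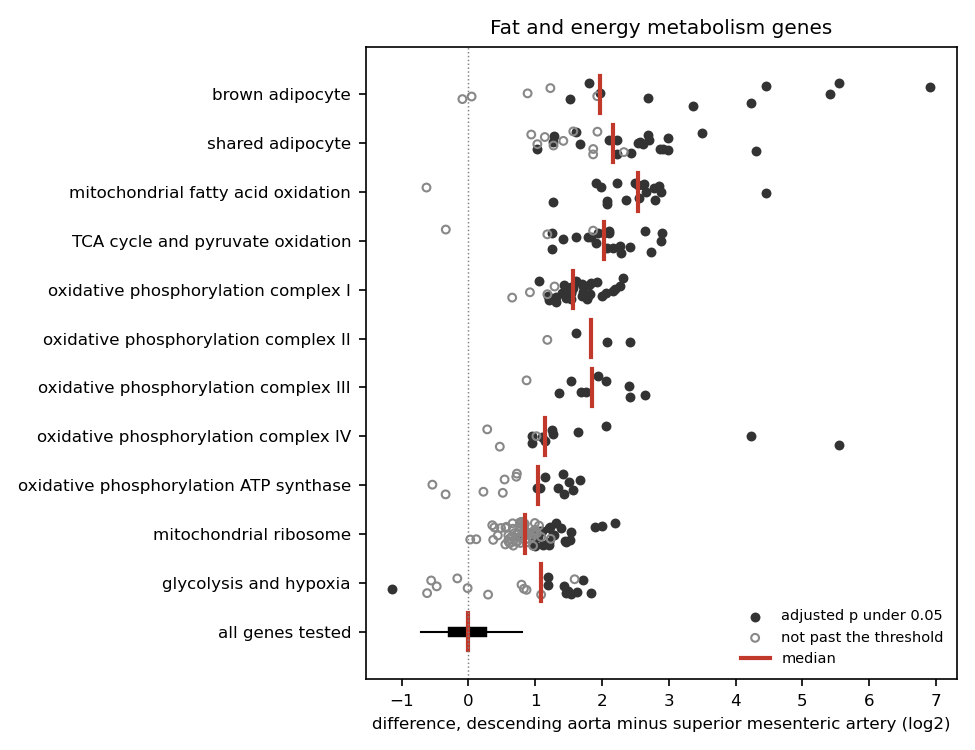
Difference (log2) of every measured member of the fat and energy metabolism lists, with filled points for genes past the threshold, open points for the others and a red line at each list's median; the bottom bar shows the central 50% (thick) and 90% (thin) of all genes tested. The medians run from 0.84 in the mitochondrial ribosome to 2.55 in fatty acid oxidation, against -0.01 over all genes.

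Because genes of the respiratory chain moved together, their promoters were searched for 2 short motifs known from nuclear-encoded mitochondrial genes. The windows were the RefSeq sequences from 250 bases before to 50 bases after each transcription start in the mouse build GRCm38.p6, searched on both strands. CGCATGCG, the middle of the element bound by the factor NRF1 and its own reverse complement, stood in 10 of the 66 oxidative phosphorylation genes with a window (15.2%), against 469 of the 15614 genes with one (3%). TCAAGGTCA, the element of estrogen-related receptors, stood in 2 of the 66 (3.03%), against 54 of all 15614 (0.346%). A match is a description of the letters and not evidence of binding. The NRF1 form was taken after a longer form had been searched, so its choice followed a view of the matches. The stretches below show the NRF1 motif, in capitals, with 40 bases on each side, in the 3 matching genes of energy metabolism with the largest differences; all run 5′ to 3′ on the gene's strand.
Acadm: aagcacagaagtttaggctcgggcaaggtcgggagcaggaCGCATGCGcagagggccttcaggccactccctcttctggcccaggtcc
Cycs: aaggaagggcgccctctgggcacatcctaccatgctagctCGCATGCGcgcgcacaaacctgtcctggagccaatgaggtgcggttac
Etfdh: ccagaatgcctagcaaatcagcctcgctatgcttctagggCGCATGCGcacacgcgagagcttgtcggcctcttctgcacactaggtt

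The first lies at chr3:153944755-153944842 on the minus strand, with the motif starting 159 bases before the transcription start of Acadm, the medium-chain dehydrogenase given above. The second lies at chr6:50566583-50566670 on the minus strand, 61 bases before the start of Cycs. The third lies at chr3:79628847-79628934 on the minus strand, 127 bases before the start of Etfdh, which passes electrons from fatty acid oxidation to the chain and differed by 2.23 ± 0.26 (SE, limma adjusted p = 0.000989) between the vessels. Acadm had levels of 9.27, 9.72 and 9.48 in descending aorta, against 7.21, 6.32 and 6.39 in superior mesenteric artery. The same motif stood in 2 of 17 fatty acid oxidation genes (11.8%) and 1 of 21 TCA cycle genes (4.76%) with a window. The element of estrogen-related receptors stood in 0 of these 17 and in 1 of these 21 (4.76%).

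No contractile gene of smooth muscle passed in either direction. The 32 measured members had a median difference of -0.37, or 0.29 without superior mesenteric artery replicate 1. Myh11, the smooth muscle myosin, had levels of 7.71, 8.43 and 7.83 in descending aorta and 10.87, 6.75 and 7.61 in superior mesenteric artery. Itga8, an integrin of smooth muscle, had levels of 6.9, 7.41 and 7.33 in descending aorta and 7.26, 3.68 and 4.0 in superior mesenteric artery, and Actg2, the enteric form of smooth muscle actin, had 6.49, 6.96 and 6.84 in descending aorta and 10.77, 7.84 and 7.96 in superior mesenteric artery. For Itga8, superior mesenteric artery replicate 1 fell within the range of descending aorta, and neither gene passed (limma adjusted p = 0.211 and 0.151). Itga8 passed without superior mesenteric artery replicate 1 (difference 3.37, limma adjusted p = 0.0115), and Actg2 without ascending aorta replicate 1 (limma adjusted p = 0.0464).

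The gene with the largest negative difference was Pcp4, which encodes a small calmodulin-binding protein of neurons and muscle. Its levels were 4.67, 4.53 and 3.95 in the descending aorta arrays, against 10.6, 8.37 and 7.69 in the superior mesenteric artery arrays. Superior mesenteric artery replicate 1 was the highest and all 3 stood far above descending aorta; the difference was -4.5 ± 0.56 (SE, limma adjusted p = 0.00129). The ascending aorta and coronary artery arrays averaged 4.51 ± 0.49 and 4.5 ± 0.13 (SD, n = 3 each), near the descending aorta level. Its relative Pcp4l1 overlapped between the vessels, with levels of 5.44, 6.24 and 5.61 in descending aorta and 8.13, 5.32 and 6.42 in superior mesenteric artery. Pcp4 kept its call in all 25 alternative fits.

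Of 24 measured genes of nitric oxide and cyclic GMP signalling, 1 (4.17%) was higher, against 2.84% of all genes. Lower were 2 (8.33%), against 0.361% of all genes. Ddah1, which breaks down an endogenous inhibitor of nitric oxide synthase, had levels of 3.38, 3.97 and 4.22 in descending aorta, against 6.54, 5.85 and 7.06 in superior mesenteric artery. Every superior mesenteric artery array stood above every descending aorta array, and the difference was -2.63 ± 0.35 (SE, limma adjusted p = 0.00177). Gucy1a1, a subunit of the nitric oxide receptor guanylate cyclase, was lower by less and less evenly, with levels of 4.89, 4.64 and 5.24 in descending aorta and 7.9, 5.75 and 6.51 in superior mesenteric artery; its difference of -1.8 ± 0.43 (SE, limma adjusted p = 0.0401) did not pass when any 1 of these was left out: descending aorta replicate 1, 2 or 3, superior mesenteric artery replicate 1 or 3 or coronary artery replicate 1, 2 or 3. The higher member was Pde3b, the phosphodiesterase through which insulin acts in fat cells, at 1.56 ± 0.25 (SE, limma adjusted p = 0.00482). Pde2a, a phosphodiesterase that breaks down both cyclic nucleotides, is not among the 24 and was lower at -1.96 ± 0.34 (SE, limma adjusted p = 0.00784).

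Of 40 vasoactive receptors, 0 were higher and 2 (5%) were lower, against 2.84% and 0.361% of all genes. Calcrl, the receptor for adrenomedullin and the calcitonin gene-related peptide, had levels of 6.94, 6.19 and 6.8 in descending aorta, against 8.81, 7.73 and 8.8 in superior mesenteric artery, a difference of -1.8 ± 0.29 (SE, limma adjusted p = 0.00492). Its ascending aorta and coronary artery means were 6.97 ± 0.11 and 8.09 ± 0.18 (SD, n = 3 each). Ptgir, the prostacyclin receptor, differed by -0.66 ± 0.15 (SE, limma adjusted p = 0.0287) and did not pass when any 1 of these was left out: descending aorta replicate 1, 2 or 3 or superior mesenteric artery replicate 1, 2 or 3. S1pr1, a sphingosine phosphate receptor of endothelium, had levels of 6.59, 6.03 and 6.5 in descending aorta and 8.05, 7.92 and 8.04 in superior mesenteric artery without overlap, but did not pass (limma adjusted p = 0.0583), except without ascending aorta replicate 1 or 2 (0.000512 and 0.0171). Of 87 potassium channel genes 0 passed. Of 65 calcium, sodium and TRP channel genes 1 (1.54%) was higher, against 2.84% of all genes. It was Trpv1, the capsaicin channel, at 0.66 ± 0.16 (SE, limma adjusted p = 0.0497). Trpv1 passed in 5 of the 24 alternative fits that tested it. It did not pass when any 1 of these was left out: descending aorta replicate 1, 2 or 3, superior mesenteric artery replicate 1, 2 or 3, ascending aorta replicate 2 or 3 or coronary artery replicate 1, 2 or 3.

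Endothelial markers had a negative median difference, but 2 of them passed. Of 24 measured members 0 were higher and 2 (8.33%) were lower, against 0.361% of all genes, with a median difference of -0.82. The list mean was 5.94, 5.51 and 5.88 in descending aorta and 7.27, 5.66 and 6.55 in superior mesenteric artery. Superior mesenteric artery replicate 2 thus lay among the descending aorta arrays. Without that array, 8 of the 24 were lower, and without descending aorta replicate 2 or 3 or superior mesenteric artery replicate 1 or 3, 0 were. Plvap, which forms the diaphragms of capillary openings, had levels of 5.49, 4.2 and 5.1 in descending aorta and 6.92, 5.86 and 6.97 in superior mesenteric artery, a difference of -1.65 ± 0.34 (SE, limma adjusted p = 0.0187); it did not pass when any 1 of these was left out: descending aorta replicate 2 or 3 or superior mesenteric artery replicate 1 or 3. Robo4, a guidance receptor of endothelium, differed by -1.47 ± 0.35 (SE, limma adjusted p = 0.0414) and passed in 10 of 25 alternative fits; it did not pass when any 1 of these was left out: descending aorta replicate 1, 2 or 3, superior mesenteric artery replicate 1 or 3, ascending aorta replicate 2 or 3 or coronary artery replicate 1, 2 or 3. Cdh5, the cadherin of endothelial junctions, differed by -1.01 ± 0.48 (SE, limma adjusted p = 0.382) and passed without superior mesenteric artery replicate 2 (difference -1.69, limma adjusted p = 0.0251).

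Adgrf5, Gpr182 and Ldb2 were among the 15 largest negative differences and belong to no list used here. Adgrf5, an adhesion receptor of endothelial and lung cells, had levels of 5.37, 4.61 and 5.1 in descending aorta, against 8.58, 6.59 and 7.37 in superior mesenteric artery, a difference of -2.49 ± 0.41 (SE, limma adjusted p = 0.00590). Gpr182, an endothelial receptor that takes up chemokines, had 4.62, 3.42 and 3.96 in descending aorta, against 7.31, 5.45 and 6.85 in superior mesenteric artery; its difference of -2.54 ± 0.46 (SE, limma adjusted p = 0.0104) did not pass when any 1 of these was left out: descending aorta replicate 2 or superior mesenteric artery replicate 3. Ldb2, a cofactor of LIM domain transcription factors, differed by -1.92 ± 0.28 (SE, limma adjusted p = 0.00272) and kept its call in all 25 alternatives. None of the 6 measured lymphatic endothelial genes passed (median -0.89), and the part of endothelial cell content in the lower genes was not tested. The arterial connexin Gja5 was higher in descending aorta. It had levels of 7.9, 6.91 and 7.64 in descending aorta, against 4.02, 3.14 and 3.71 in superior mesenteric artery, with no overlap. Its difference was 3.86 ± 0.82 (SE, limma adjusted p = 0.0226), and it did not pass when any 1 of these was left out: descending aorta replicate 1, 2 or 3 or superior mesenteric artery replicate 2 or 3. The other 15 connexins did not pass, so the higher share was 6.25%, against 2.84% of all genes.

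Of the 37 measured Hox genes, which record position along the body axis, 2 (5.41%) were higher in descending aorta, against 2.84% of all genes, and 0 were lower. The 2 were Hoxc6 and Hoxc8; the median difference was 0.11 in groups 1 to 5 and 0.13 in groups 6 to 13. Hoxc6 had levels of 4.94, 4.83 and 4.37 in descending aorta, against 2.05, 2.04 and 2.87 in superior mesenteric artery. The difference was 2.39 ± 0.24 (SE, limma adjusted p = 0.000582), and the ascending aorta and coronary artery means were 2.56 ± 0.12 and 2.91 ± 0.12 (SD, n = 3 each). Hoxc8 had levels of 5.51, 4.98 and 4.98 in descending aorta, against 2.71, 2.75 and 4.01 in superior mesenteric artery, where replicate 3 stood above the other replicates of that vessel. Its difference was 2.0 ± 0.31 (SE, limma adjusted p = 0.00389). Both genes passed in all 25 alternative fits.

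The other Hox genes did not pass. Hoxa4 had 6.3, 6.17 and 6.13 in descending aorta and 6.23, 5.59 and 5.64 in superior mesenteric artery, and Hoxb5 had 5.84, 5.17 and 5.28 in descending aorta and 6.27, 4.33 and 4.66 in superior mesenteric artery. Hoxb6 (0.58), Hoxb7 (0.16), Hoxa5 (0.31) and Hoxa7 (0.46) had positive differences too, and of these 4 Hoxa7 had arrays without overlap. Hoxc9 and Hoxc10, the next members of the Hoxc cluster, stood at differences of -0.02 and -0.1.

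Among 55 measured developmental transcription factors 2 (3.64%) were higher, a share near the 2.84% of all genes, and 2 were lower, against 0.361% of all genes. Twist1, a mesenchymal factor, had levels of 6.07, 6.13 and 5.91 in descending aorta, against 3.82, 4.51 and 3.9 in superior mesenteric artery, a difference of 1.96 ± 0.47 (SE, limma adjusted p = 0.0416). Pax1, known from the sclerotome that forms vertebrae, was higher by a small amount (0.75 ± 0.17 SE, limma adjusted p = 0.0323). Foxf1, a forkhead factor of the mesoderm around the gut, had levels of 3.88, 4.41 and 4.09 in descending aorta, against 7.18, 4.68 and 6.1 in superior mesenteric artery, a difference of -1.86 ± 0.45 (SE, limma adjusted p = 0.0463). Meox1, a homeobox factor of somites, had 4.54, 4.2 and 4.41 in descending aorta, against 5.9, 5.38 and 6.77 in superior mesenteric artery, a difference of -1.63 ± 0.36 (SE, limma adjusted p = 0.0272). All 4 had arrays without overlap, but none held through every left-out array: Meox1 passed in 16 of 25 alternative fits, Pax1 in 13, Twist1 in 11 and Foxf1 in 6. Meox1 did not pass when any 1 of these was left out: descending aorta replicate 1, 2 or 3 or superior mesenteric artery replicate 1 or 3. Pax1 did not pass when any 1 of these was left out: descending aorta replicate 1 or 3, superior mesenteric artery replicate 1, 2 or 3 or coronary artery replicate 2. Twist1 did not pass when any 1 of these was left out: descending aorta replicate 1, 2 or 3, superior mesenteric artery replicate 1, 2 or 3 or coronary artery replicate 1, 2 or 3. Foxf1 did not pass when any 1 of these was left out: descending aorta replicate 1, 2 or 3, superior mesenteric artery replicate 1 or 3, ascending aorta replicate 2 or 3 or coronary artery replicate 1, 2 or 3.

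**Figure D5:**
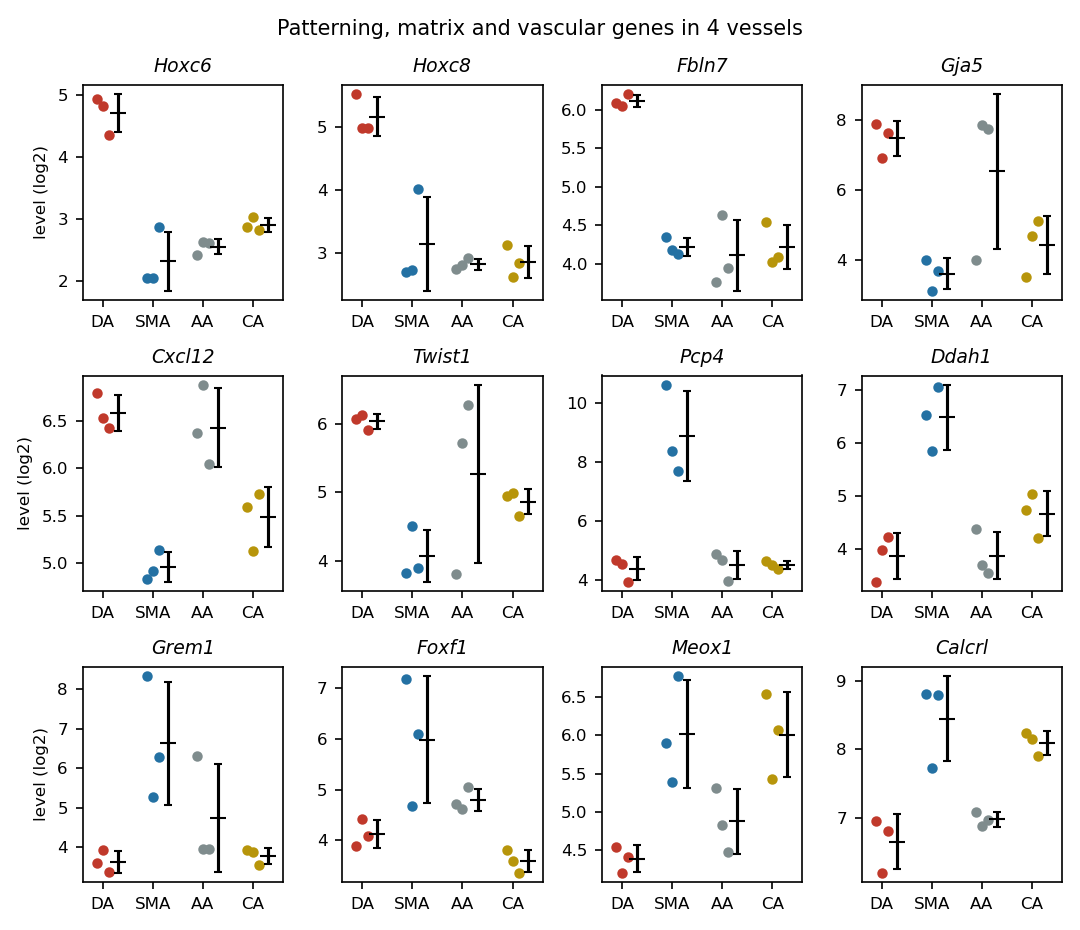
Level (log2) of 12 patterning, matrix and vascular genes in descending aorta (DA), superior mesenteric artery (SMA), ascending aorta (AA) and coronary artery (CA), with 1 point per array and the mean ± SD beside it. Hoxc6, Hoxc8 and Fbln7 are highest in all 3 descending aorta arrays, and Pcp4 and Ddah1 in all 3 superior mesenteric artery arrays; the ascending aorta and coronary artery are shown as values without a test.

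Of 20 elastic fibre genes of the extracellular matrix 1 (5%) was higher, against 2.84% of all genes. The list median was 0.01. Of 44 collagen genes 0 passed, with a median of 0.02. Of 33 proteoglycan and matricellular genes 1 (3.03%) was lower, against 0.361% of all genes. The elastic fibre gene that passed was Fbln7, a fibulin that binds cells and matrix. It had levels of 6.09, 6.04 and 6.2 in descending aorta, against 4.35, 4.18 and 4.13 in superior mesenteric artery, with means of 6.11 ± 0.08 and 4.22 ± 0.11 (SD, n = 3 each). The difference was 1.89 ± 0.23 (SE, limma adjusted p = 0.00113), and the ascending aorta and coronary artery means were 4.11 ± 0.46 and 4.22 ± 0.28 (SD, n = 3 each). Eln, the elastin gene, had levels of 6.74, 6.44 and 6.43 in descending aorta and 6.64, 5.64 and 6.02 in superior mesenteric artery (difference 0.44 ± 0.34 SE, limma adjusted p = 0.627). Spon2, a secreted matrix protein, was lower in descending aorta, at 3.72, 3.88 and 4.49 against 5.57, 5.71 and 6.02 in superior mesenteric artery, a difference of -1.74 ± 0.3 (SE, limma adjusted p = 0.00800) that was lost without descending aorta replicate 2.

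Secreted signals differed in a few genes. Grem1, an antagonist of bone morphogenetic proteins, had levels of 3.6, 3.92 and 3.38 in descending aorta, against 8.32, 5.28 and 6.28 in superior mesenteric artery. Replicate 1 of the superior mesenteric artery was the highest, and the difference of -3.0 ± 0.7 (SE, limma adjusted p = 0.0376) passed in 12 of 25 alternative fits; it did not pass when any 1 of these was left out: descending aorta replicate 1, 2 or 3, superior mesenteric artery replicate 1 or 3 or coronary artery replicate 1, 2 or 3. It was the 1 gene past the threshold among 37 of the TGF-beta and BMP pathway (2.7% lower, against 0.361% of all genes). Cxcl12, a chemokine made by stromal and endothelial cells, had levels of 6.79, 6.53 and 6.42 in descending aorta, against 4.83, 4.92 and 5.13 in superior mesenteric artery, a difference of 1.62 ± 0.23 (SE, limma adjusted p = 0.00272) that held in all 25 alternatives. The Wnt inhibitors Sfrp2 and Sfrp4 had arrays far apart. Sfrp2 had 9.82, 9.74 and 9.74 in descending aorta and 6.38, 6.77 and 7.27 in superior mesenteric artery, and Sfrp4 had 9.51, 9.37 and 9.45 in descending aorta and 6.54, 6.97 and 6.75 in superior mesenteric artery, but neither passed in the fit over all vessels (limma adjusted p = 0.0736 and 0.0914). Without ascending aorta replicate 1 both passed (limma adjusted p = 4.18e-06 and 2.69e-05), and without ascending aorta replicate 2 Sfrp2 did (0.0484). Of 22 Notch pathway genes 0 were higher and 1 (4.55%) was lower, against 0.361% of all genes. It was Nrarp, a brake on Notch signalling (-0.81 ± 0.2 SE, limma adjusted p = 0.0486). Nrarp passed in 7 of 25 alternatives. It did not pass when any 1 of these was left out: descending aorta replicate 2 or 3, superior mesenteric artery replicate 1, 2 or 3, ascending aorta replicate 2 or 3 or coronary artery replicate 1, 2 or 3.

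Marker lists of lymphoid cells, macrophages and pancreatic acinar cells had negative medians. B cell and plasma cell genes had a median difference of -1.78 over 15 members, T cell and lymph node genes -1.11 over 16, macrophage and monocyte genes -0.83 over 20 and pancreatic acinar genes -2.55 over 20, each with 0 past the threshold. Jchain, the joining chain of plasma cell antibodies, had levels of 3.84, 3.54 and 4.11 in descending aorta and 7.64, 8.05 and 7.13 in superior mesenteric artery (difference -3.77 ± 1.2 SE, limma adjusted p = 0.133), and Cxcl13, a chemokine of lymph node follicles, had 6.99, 5.1 and 6.86 in descending aorta and 8.22, 10.75 and 10.45 in superior mesenteric artery. Without ascending aorta replicate 1, 7 B cell and plasma cell genes and 4 T cell and lymph node genes were lower, Jchain and Cxcl13 among them (limma adjusted p = 3.01e-06 and 0.0194), and without superior mesenteric artery replicate 2, 7 acinar genes were. Of all 19938 genes, 391 were lower in the first of these fits and 93 in the second. For Jchain, that ascending aorta array had a level of 9.67, against 3.43 and 3.51 in replicates 2 and 3 of its vessel. The acinar median was -0.76 without superior mesenteric artery replicate 3, and 6 macrophage genes were lower without superior mesenteric artery replicate 1, where 108 of all genes were. Of 12 mesothelial genes 1 (8.33%) was lower, against 0.361% of all genes. It was the keratin Krt8 (-1.63 ± 0.33 SE, limma adjusted p = 0.0184). Krt8 did not pass when any 1 of these was left out: descending aorta replicate 1 or 2 or superior mesenteric artery replicate 2 or 3. The mesothelial list means were 5.59, 5.25 and 6.86 in descending aorta and 5.86, 7.23 and 7.08 in superior mesenteric artery. The part these cells play in the genes called above was not tested.

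None of 19 fibroblast genes passed (median 0.39), nor did any of 9 mast cell genes, whose median was positive (0.75). Without ascending aorta replicate 1, 5 of the fibroblast and 4 of the mast cell genes were higher, where 970 of all 19938 genes were. Circadian clock, immediate early and cell cycle lists each had 0 genes past the threshold, of 16, 22 and 19. Further genes among the largest differences belong to no list. Tmem45b had levels of 8.58, 8.64 and 7.01 in descending aorta, against 2.91, 4.0 and 4.12 in superior mesenteric artery (4.4 ± 0.78 SE, limma adjusted p = 0.00858), and Nrg4, a secreted ligand of brown fat, had 6.94, 7.31 and 6.93 in descending aorta, against 3.34, 4.17 and 3.43 in superior mesenteric artery (3.42 ± 0.48 SE, limma adjusted p = 0.00237). Adtrp, a membrane hydrolase of certain fatty acid esters, differed by 3.14 ± 0.36 (SE, limma adjusted p = 0.000989). On the lower side, Bst1, an ectoenzyme of bone marrow stroma and myeloid cells, differed by -2.6 ± 0.48 (SE, limma adjusted p = 0.0115), the laminin receptor subunit Itga6 by -2.22 ± 0.44 (SE, limma adjusted p = 0.0168), the tetraspanin Tspan13 by -1.84 ± 0.43 (SE, limma adjusted p = 0.0382) and the ceramide synthase Cers6 by -1.76 ± 0.28 (SE, limma adjusted p = 0.00460). Of these, Nrg4, Adtrp and Cers6 kept their call without each array in turn. Tmem45b, Bst1, Itga6 and Tspan13 each lost it without descending aorta replicate 2, among other fits. They passed in 23, 21, 19 and 13 of 25 alternative fits. Hp, the gene for haptoglobin, a plasma protein of liver that fat cells also make, was higher at 2.43 ± 0.52 (SE, limma adjusted p = 0.0245) but did not pass when any 1 of these was left out: descending aorta replicate 1 or 2 or superior mesenteric artery replicate 1 or 3. The liver marker Alb had levels of 5.26, 3.37 and 5.74 in descending aorta and 2.9, 8.61 and 4.05 in superior mesenteric artery.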

How the data were processed

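Expression was measured on 12 arrays, 3 per vessel. The authors deposited log2 values of 35556 probe sets, made with RMA and Partek 6.6 per the submitters' processing notes; how the arrays were normalized in detail is not given in the sources at hand. Array medians over genes ran from 4.04 to 4.18. Precision is limited by the number of arrays, and detection calls were not used here.

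Of the probe sets, 21789 had 1 gene symbol in the platform annotation, 1621 had several and 12146 had none; the last 2 kinds were left out. Of those with 1 symbol, 21698 were found by gene ID in the gene table of GRCm38.p6, and 0 symbols changed. For 999 genes with several probe sets the one with the highest mean was used, giving 19938 genes. The titles gave each array's vessel. limma 3.58.1 in R 4.3.3 (data.table, version 1.17.8) was fitted to all 12 arrays with 1 mean per vessel and 8 residual degrees of freedom, and the procedure was tested on simulated data. Figures and the motif search used Python 3.11.15 and matplotlib 3.10.9.

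The comparison, the 52 gene lists and the genes named were chosen with earlier results of these data known. Named were the 15 largest differences in each direction among genes that passed (1 unnamed gene model was skipped), up to 8 passing members and the 3 largest differences of each list, Hox genes with a mean level above 4.5 in either vessel, and cell type markers. Dio2, Ebf2 and Plin1 were named only as cell type markers; Cpt1a, Egln3, Eln, Hoxc9, Hoxc10 and Etfdh fall outside the rule, the last taken for a promoter match. All 9 were picked after their values were seen. Of the 223 genes named by the rule before markers, 18 had several probe sets, and none of these went in opposite directions. Alternatives were the 6 arrays of the pair alone, a replicate block, other normalizations, filters and probe set rules, array weights, an intensity trend, a threshold of 0.01, a 2-fold minimum, a lymphoid marker mean as covariate, and fits without single arrays or without 2 arrays together (replicate 1 of descending aorta, replicate 3 of superior mesenteric artery). The labels give no batch. A longer form of the NRF1 motif was searched before the form reported here was taken, so its choice followed a view of the matches.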

Additional observations from a re-analysis of the deposited data

How the results depend on the processing

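The 567 higher and 72 lower genes became 222 and 13 at the 0.01 threshold, 960 and 396 with array weights, 354 and 136 with the lymphoid marker mean as covariate, and 131 and 9 without 2 arrays at once, replicate 1 of descending aorta and replicate 3 of superior mesenteric artery. The lower count was 184 when only the 6 arrays of the pair were fitted and 42 when every probe set was tested, where 62 probe sets without a single symbol also passed. Leaving out each array in turn gave 202 to 970 higher and 16 to 391 lower genes, 29 to 71 higher members of oxidative phosphorylation and 7 to 10 of the brown adipocyte list. The 62 oxidative phosphorylation genes became 33 at the threshold of 0.01 and 16 without that pair of arrays. The cause of these shifts was not tested beyond the change in samples or threshold itself. Arrays with the same replicate number did not deviate together (correlations of deviations 0.04, -0.01 and 0.06). With 3 arrays per vessel these values cannot show whether equal numbers stand for the same animal. With the replicate number as a block, 641 genes passed, 565 of them among the 639 reported, and 6 of 122 called named genes were lost. None of these 122 changed direction in any alternative that tested them. Without that pair of arrays 52 of the 122 kept their call, without descending aorta replicate 2 76 and without superior mesenteric artery replicate 3 80. Groups of 3 arrays are too small to test a single array as an outlier.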
